A study of Drosophila melanogaster with 12 samples.

Results

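The 6 genes described here, pannier (pnr), u-shaped (ush), eyegone (eyg), twin of eyegone (toe), tailup (tup) and stripe (sr), pattern the notum, the dorsal body wall of the fly thorax. They were examined for occupancy by Ultrabithorax (Ubx), the Hox transcription factor of the segment that bears the haltere. Each gene was found by its symbol in a RefSeq gene table of Drosophila melanogaster Release 6 and taken with 10 kb on both sides. All 6 symbols matched, out of 13946 protein-coding genes on the sequences present in the peak lists. The members are defined by name, but they were chosen with earlier results of these data known, so their counts against all genes are descriptions only.

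The data are chromatin immunoprecipitation followed by sequencing (ChIP-seq) with a polyclonal antibody to the N-terminal part of Ubx. Haltere imaginal discs of wild-type Canton S larvae at the wandering stage at the end of larval life gave 3 biological replicate libraries. Their peak lists and 1 consensus list were analysed; the input libraries of both tissues and the wing disc ChIP libraries were not analysed here. With peak lists from 1 group only, no comparison between tissues or treatments was made, and every value below is a description without a test.

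The haltere disc forms the haltere and the small dorsal plate of the metathorax, the segment behind the wings. Under Ubx this metathoracic notum is reduced, whereas the wing disc of the neighbouring segment makes the large mesothoracic notum. In the mesothorax, Pnr is a GATA-type transcription factor that sets up the medial notum, and Ush is a zinc finger cofactor that binds Pnr and tempers its activity. Eyg and Toe are paralogous Pax-family proteins, and eyg is needed for the central notum. Tup is a LIM-homeodomain protein that promotes notum formation, and Sr is an EGR-type zinc finger protein that specifies the tendon cells to which flight muscles attach.

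The peak lists held 2869 peaks in replicate 1, 2361 in replicate 2 and 3859 in replicate 3, and the consensus list held 2171 regions. That list matched the stretches covered by at least 2 of the 3 libraries in all 2171 regions, and 42.7% of them (927; 95% Wilson interval 40.6 to 44.8%) were overlapped by peaks of all 3. Read depth cannot be had from these files, and a site without a peak is only a site that did not pass the authors' limit. Intervals cover counting error over regions, which are not independent. Peaks found in no other library made up 51.3% of the replicate 1 list, 26.1% of replicate 2 and 46.6% of replicate 3.

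All 6 notum genes had at least 1 consensus region within 10 kb, against 17.7% of all protein-coding genes. Longer genes have longer windows: among the 3230 protein-coding genes at least as long as the shortest of the 6 (5485 bp), the share was 27.3%. A region recovered in every library was present at 5 of the 6 genes, against 8.76% of all protein-coding genes and 14.3% of those of at least that length. The exception was pnr, whose single region was in 2 libraries. The length limit is only a lower one: the 6 genes run from 5485 to 64341 bp, and the comparison was not matched for length. Every library had peaks at all 6 genes. The share of all protein-coding genes with a peak within 10 kb was 28.9% for replicate 1, 21.3% for replicate 2 and 32% for replicate 3.

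In all, 16 consensus regions lay in the 6 windows, which together span 282 kb. This corresponds to 0.567 regions per 10 kb, compared with 0.160 per 10 kb over the main chromosome arms. No region lay in more than 1 window. Ush had 6 regions, eyg had 3, toe, tup and sr had 2 each, and pnr had 1. At least 2 regions were present at 5 of the 6 genes, against 7.06% of all protein-coding genes. The 5 include sr, whose 2 regions lay 173 bp apart and were overlapped by the same replicate 2 peak. Counted as 1 region, they would leave sr out of the 5. Having 6 or more regions placed ush among 1.41% of protein-coding genes, a share that again takes no account of gene length.

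**Figure D1:**
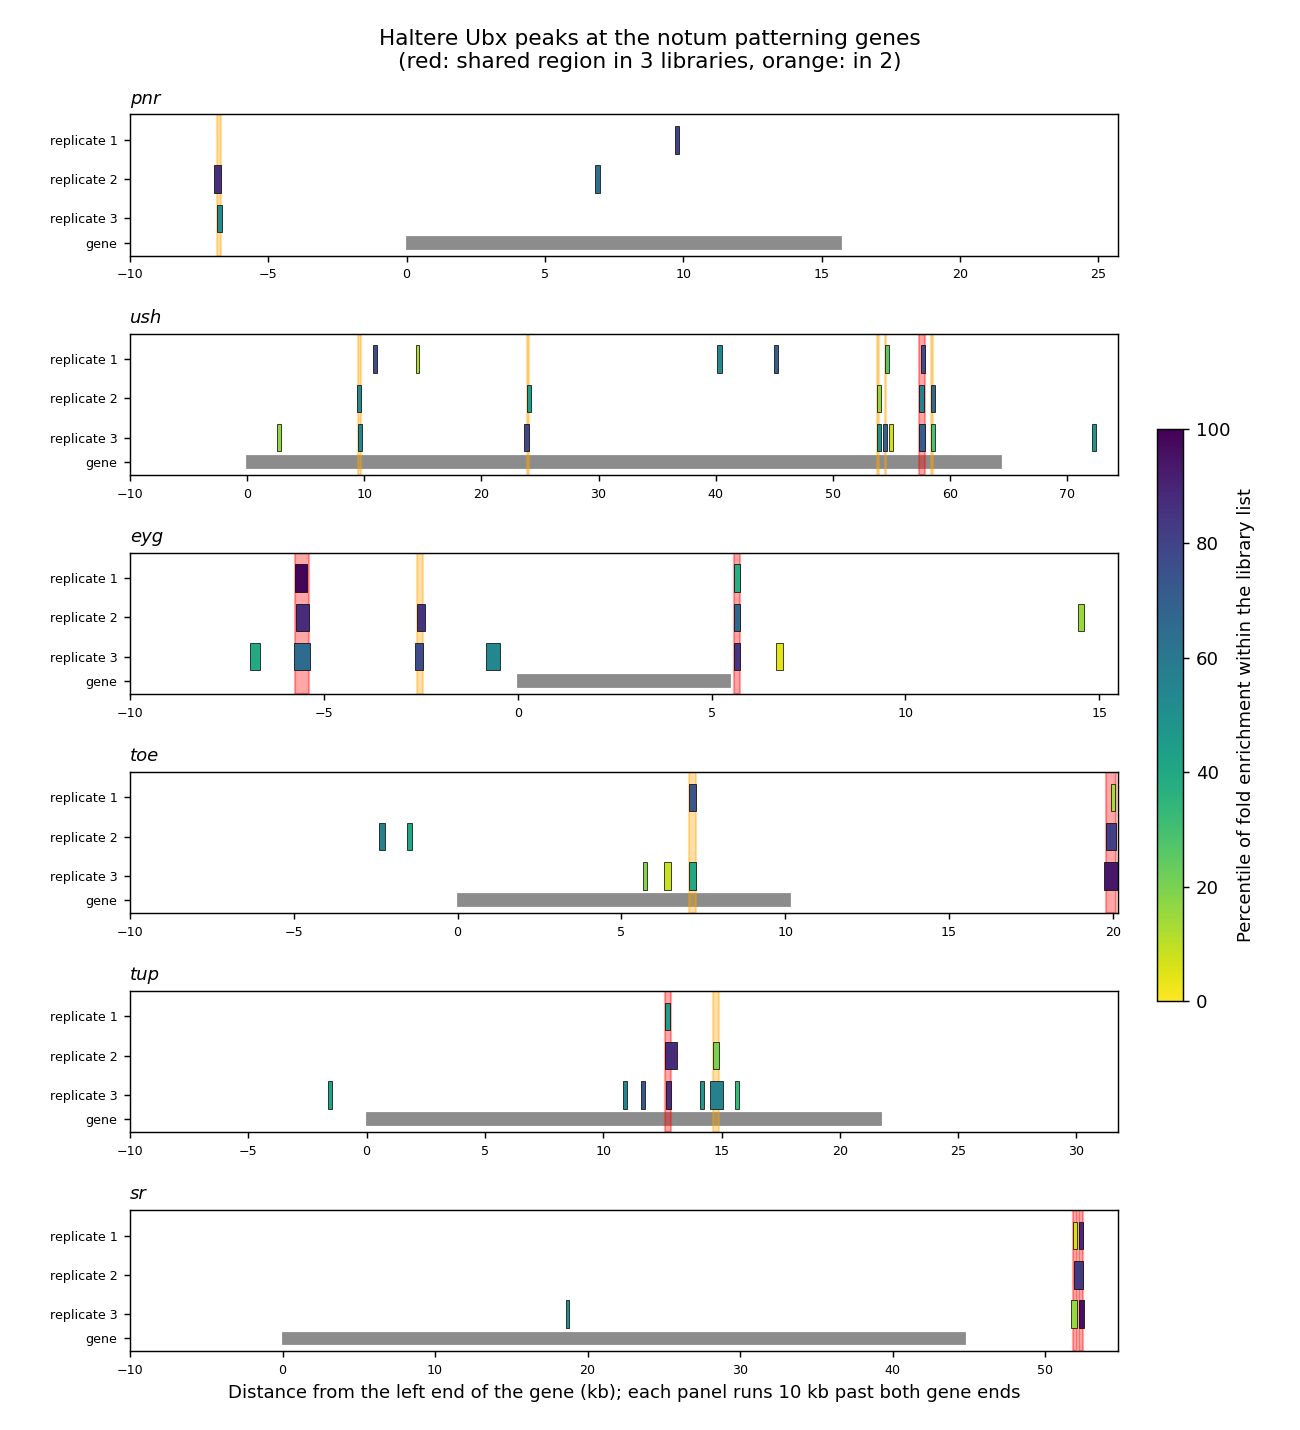
Ubx peaks of the 3 haltere libraries at the 6 genes, by distance in kb from the left (lower-coordinate) end of each gene; each box is a peak coloured by the percentile of its fold enrichment within its own list (narrow peaks are drawn at a minimum width), grey bars are genes, and vertical bands are consensus regions in 3 libraries (red) or 2 (orange). Red bands lie inside ush and tup and outside eyg, toe and sr.

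Recovery across libraries at these genes was close to that of the whole list. All 3 libraries overlapped 7 of the 16 regions (43.8%; 95% Wilson interval 23.1 to 66.8%), next to 42.7% of all regions. Replicate 1 overlapped 9 of the 16, replicate 2 overlapped 14 and replicate 3 overlapped all 16. Of the 9 regions in exactly 2 libraries, replicates 2 and 3 shared 7 (77.8%), replicates 1 and 3 shared 2, and replicates 1 and 2 shared none. In the whole list, 61.3% of such regions came from replicates 2 and 3. Without replicate 2 the number of shared regions fell from 16 to 9, and without replicate 3 it was 7, whereas without replicate 1 it was 14.

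Replicate 3 had the most peaks at these genes. Within 10 kb of the 6 genes, 14 peaks were called in replicate 1, 17 in replicate 2 and 30 in replicate 3 (20.3 ± 8.50, SD, n = 3). These made up 0.488, 0.720 and 0.777% of the 3 lists. Replicate 2 has the shortest list and had 17 peaks at these genes, against 14 in replicate 1. Whether such differences go beyond counting error was not tested. Of the 61 peaks, 23 overlapped no peak of another library: 5 of 14 in replicate 1 (35.7%), 4 of 17 in replicate 2 (23.5%) and 14 of 30 in replicate 3 (46.7%). In replicate 1 that share was below the 51.3% of its whole list, and in the other libraries it was close to the list value.

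**Figure D2:**
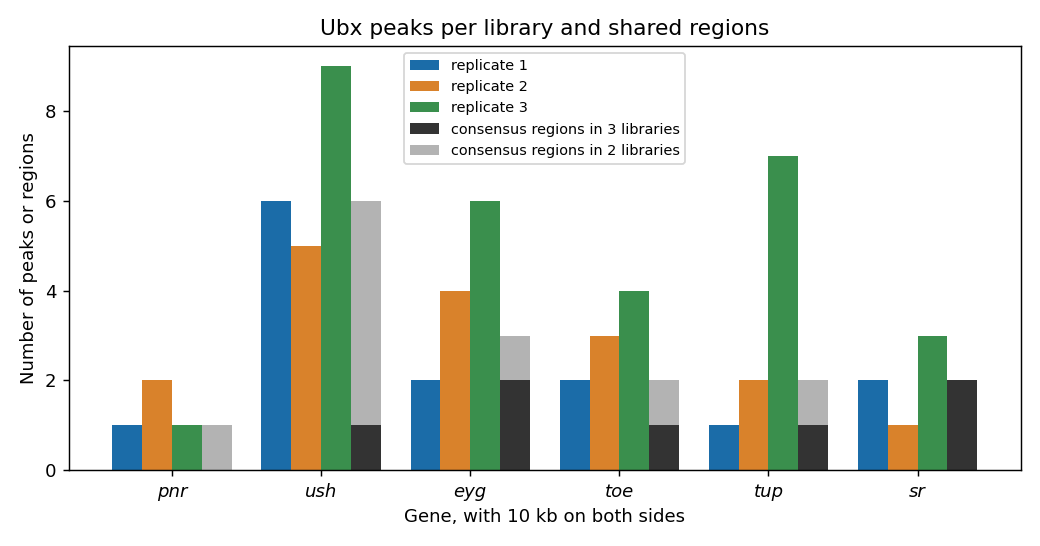
Number of Ubx peaks within 10 kb of each gene in replicates 1, 2 and 3 (coloured bars), with the consensus regions in 3 libraries (black) and in 2 (grey) stacked beside them. Replicate 3 has the most peaks at ush (9), eyg (6), toe (4), tup (7) and sr (3), but not at pnr, where replicate 2 has the most (2).

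The gene pnr (3R, 16026079 to 16041796) was the least occupied of the 6 by shared peaks. Replicates 1 and 3 each had 1 peak there and replicate 2 had 2. The single consensus region (3R, 16019218 to 16019366) lay 6713 bp to the left of pnr but only 85 bp from GATAe, a neighbouring gene for another GATA factor, so its assignment to pnr rests on the window alone. It was called in replicate 2 with a fold enrichment of 5.98 and in replicate 3 with 4.46, and not in replicate 1. Fold enrichment is the authors' value at the summit over the background of the peak caller and is compared here only within a list. These folds stood at percentiles 86.1 and 52.4 of their lists, where 100 is the strongest.

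Within the pnr gene itself no peak was shared. Replicate 1 had 1 peak there (16035785 to 16035937, fold 5.70, percentile 80.3) and replicate 2 had 1 (16032890 to 16033065, fold 4.54, percentile 64.2), and 2719 bp separated them. Replicate 3, the longest list, had no peak inside pnr. The replicate 1 peak was 1 of only 2 single-library peaks at the 6 genes that ranked above percentile 75 of a list; the other was in ush.

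The gene ush (2L, 476220 to 540560), which encodes the cofactor of Pnr, had the most regions when all 3 libraries were used. Of its 6 regions, 5 were in exactly 2 libraries. Without replicate 3 only 1 was left, against 2 at eyg and 2 at sr. Peaks at ush numbered 6 in replicate 1, 5 in replicate 2 and 9 in replicate 3 (6.67 ± 2.08, SD, n = 3). All 6 consensus regions lay inside the gene, which is 64341 bp long and the longest of the 6. The number of regions per 10 kb of window was 0.711 at ush, below the 1.18 at eyg and above the 0.280 at pnr.

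A group of 4 of the ush regions lay within 4760 bp near the right end of the gene. The only region at ush in all 3 libraries (533589 to 534081) was in this group, 6479 bp from the right end, and was the widest of the 16 at 493 bp. Its fold reached 5.53 in replicate 1, 4.27 in replicate 2 and 5.34 in replicate 3, at percentiles 78.4, 56.8 and 71.0. It was above the list median in each library. The summits of the 3 peaks were spread over 252 bp, more than the 71 bp median spread of all regions in 3 libraries and above the 153 bp that bounds the lowest 75% of them.

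The other ush regions were weaker or uneven. In the same group, the region from 530007 to 530187 had folds of 3.21 in replicate 2 and 4.33 in replicate 3, and that from 534582 to 534766 had 4.68 and 3.77 in the same libraries. The region from 530635 to 530775 had folds of 3.76 in replicate 1 and 5.28 in replicate 3. Each of these was at or below percentile 30 in one of its libraries, as low as 16.1 for the first. For the region from 530635 to 530775, the replicate 3 summit (530633) lay just outside the region.

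Towards the left end of ush, the region from 485713 to 485896 had folds of 4.08 in replicate 2 and 4.50 in replicate 3, at percentiles 51.3 and 53.9. The region from 500074 to 500257 had folds of 3.91 and 5.91 in the same libraries, at percentiles 44.5 and 78.7. Replicate 1 had no peak at either. Its 4 single-library peaks in ush lay elsewhere in the gene, the strongest from 486979 to 487140 with a fold of 5.45 (percentile 77.1). One replicate 3 peak (478788 to 478945) lay in a stretch of ush that also holds the gene cbt, and another (548332 to 548550) lay inside Ets21C, to the right of ush.

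The Pax genes toe (3L, 12422510 to 12432668) and eyg (3L, 12462537 to 12468021) are neighbours, with 29868 bp between them. Of their 5 consensus regions, 3 lay in this interval, and 2 of these were in all 3 libraries. Replicate 1 had 2 peaks in the interval, replicate 2 had 4 and replicate 3 had 7. None of the interval regions overlapped an annotated gene.

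At eyg, the strongest region (12456792 to 12457150) lay 5387 bp to the left of the gene and was in all 3 libraries. Its fold reached 10.7 in replicate 1, 6.18 in replicate 2 and 5.05 in replicate 3. Replicate 1 ranked it 30 of 2869 (percentile 99.0), replicate 2 ranked it 292 of 2361 (87.7) and replicate 3 ranked it 1331 of 3859 (65.5), so it was above the median throughout but at very different ranks. The summits lay within 32 bp of each other. The next region (12459938 to 12460087), 2450 bp from the gene, had folds of 5.88 in replicate 2 and 5.75 in replicate 3, at percentiles 85.4 and 77.0, and no peak in replicate 1.

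The other side of eyg had a region in all 3 libraries (12468121 to 12468272), 100 bp to the right of the gene. Its fold reached 4.08 in replicate 1, 4.66 in replicate 2 and 6.66 in replicate 3, at percentiles 38.0, 67.0 and 85.0. Here replicate 1 was lowest and replicate 3 highest, the reverse of the left-hand region. No peak of any library overlapped eyg itself, the shortest of the 6 genes. The gene had 2 peaks within 10 kb in replicate 1, 4 in replicate 2 and 6 in replicate 3.

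At toe, the region in all 3 libraries (12442312 to 12442611) lay 9644 bp to the right of the gene, near the limit of its window, and 19926 bp from eyg. Its fold reached 3.47 in replicate 1, 5.54 in replicate 2 and 8.63 in replicate 3, at percentiles 13.1, 81.7 and 94.1. It was among the weakest peaks of replicate 1 and among the strongest of replicate 3, and its percentile over libraries was 63.0 ± 43.6 (SD, n = 3). The other region (12429583 to 12429774) lay inside toe, with folds of 5.22 in replicate 1 and 4.07 in replicate 3. Replicate 2 had no peak in toe and 2 single-library peaks to its left, 1400 and 2218 bp away.

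The LIM-homeodomain gene tup (2L, 18859507 to 18881261) had both of its regions inside the gene. Replicate 1 had 1 peak, replicate 2 had 2 and replicate 3 had 7, the widest difference between libraries among the 6 genes (3.33 ± 3.21, SD, n = 3). Of the 7 in replicate 3, 6 lay within 4898 bp in the middle of the gene, and 5 of the 7 had no partner in another library. The region in all 3 libraries (18872107 to 18872384) had a fold of 4.21 in replicate 1, 6.22 in replicate 2 and 6.91 in replicate 3, at percentiles 44.9, 88.1 and 86.6. Replicates 2 and 3 placed it high, and replicate 1 just below its median. The region from 18874127 to 18874383 had folds of 3.33 in replicate 2 and 4.64 in replicate 3, at percentiles 20.2 and 57.0. Its replicate 3 peak was 548 bp wide, with the summit at 18874094, outside the region.

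The tendon gene sr (3R, 18090803 to 18135583) had its shared peaks outside the gene. Its peaks numbered 2 in replicate 1, a single one in replicate 2 and 3 in replicate 3. The strongest region (18143043 to 18143312) lay 7460 bp to the right of sr, which was its nearest protein-coding gene, with CG14316 at 8808 bp. Its fold reached 6.44 in replicate 1, 5.71 in replicate 2 and 9.62 in replicate 3, at percentiles 88.5, 83.6 and 96.0. It stood above percentile 80 in every library, the only one of the 16 regions to do so, and its summits lay within 33 bp.

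A second region at sr (18142642 to 18142869) lay 173 bp from the first. Replicates 1 and 3 called it as a separate and weak peak, with folds of 3.23 and 3.38 at percentiles 6.85 and 15.9. Replicate 2 called 1 peak of 582 bp over both regions with its summit in the first, so the higher percentile of 83.6 listed for replicate 2 belongs to that shared peak. Counting the 2 regions as 1 gives 15 regions at the 6 genes, 6 of them in all 3 libraries. The only peak inside sr was in replicate 3 (18109358 to 18109544, fold 4.40, percentile 50.3).

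**Figure D3:**
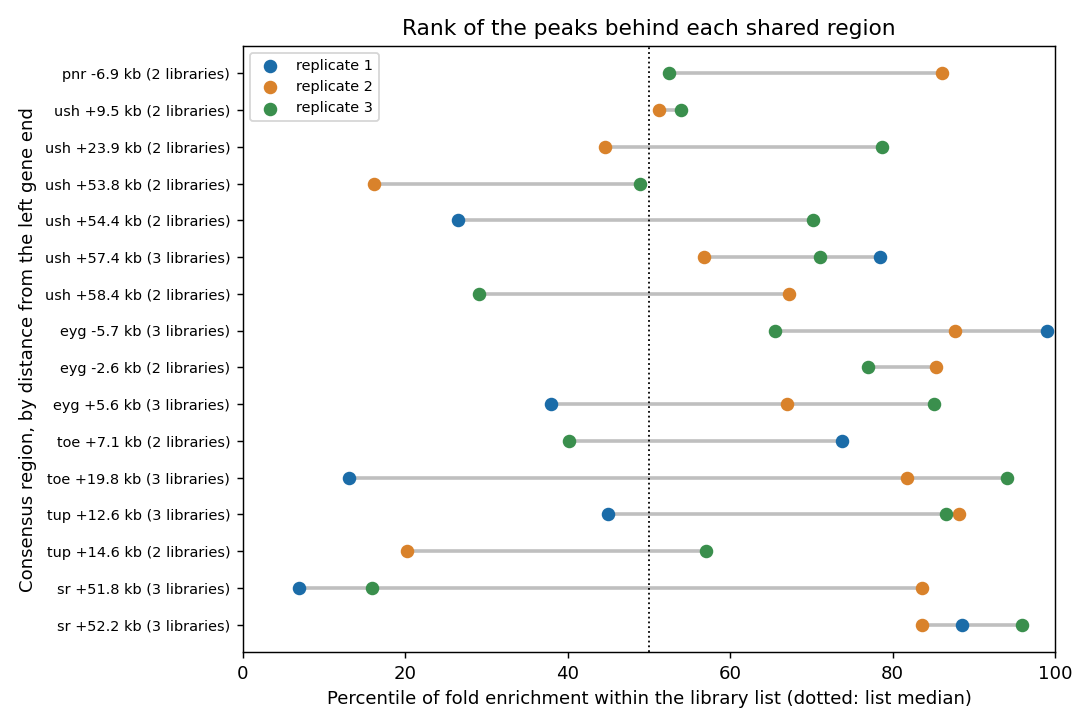
Percentile of fold enrichment within each library list (horizontal axis, 100 is the strongest) for the peaks behind the 16 consensus regions, named by gene and distance in kb from the left gene end; points are replicates 1, 2 and 3, the grey line is their range and the dotted line is the list median. The second sr region spans percentiles 6.85 to 83.6, and the strongest sr region 83.6 to 96.0.

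By place, 9 of the 16 regions (56.3%; 33.2 to 76.9%) lay inside the gene they were assigned to: 6 in ush, 2 in tup and 1 in toe. Thus 3 of the 6 genes had a region in the gene body, against 4.85% of all protein-coding genes, and ush and tup had one in all 3 libraries, against 2.1%. Both shares are over genes of every length, and a longer gene body can hold more regions. The lengths of ush, toe and tup are 64341, 10159 and 21755 bp. The other 7 regions overlapped no annotated gene. For 15 of the 16 the assigned gene was the nearest protein-coding gene, and the exception was the region by GATAe. No matching shares by place were taken over all 2171 consensus regions, so these counts only describe the 16. The median width was 189 bp, compared with 210 bp over the whole list.

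The fold enrichment of the peaks at these genes was not far from the middle of each list. The 14 peaks of replicate 1 had a median percentile of 61.8, the 17 of replicate 2 had 64.2 and the 30 of replicate 3 had 51.4, which average 59.1 ± 6.83 (SD, n = 3). All 3 medians were above 50, and in replicate 3 by little. The peaks ran from percentile 6.85 to 99.0 in replicate 1, from 15.4 to 88.1 in replicate 2 and from 4.26 to 96.0 in replicate 3. Ranked by the −log10 q-value in place of fold, the medians were 61.8 in replicate 1, 49.6 in replicate 2 and 45.9 in replicate 3. Those of replicates 2 and 3 were thus below 50, and the mean of the 3 medians was 52.4 ± 8.29 (SD, n = 3). Peaks with a partner in another library had a higher median percentile than those without in replicate 2 (67.2 against 48.8) and replicate 3 (67.9 against 40.5). In replicate 1 the order was the opposite, with 44.9 for the 9 peaks with a partner and 70.0 for the 5 without.

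The 7 regions in all 3 libraries were then placed among all 927 such regions by their mean percentile of fold. The strongest sr region ranked 152 and the left-hand eyg region ranked 238. The tup region ranked 434, the ush region 501, the right-hand eyg region 589, the toe region 595 and the second sr region 872. The regions were thus spread over the order, with 3 of 7 above its midpoint. The median spread of their summits was 93 bp, against 71 bp for all 927 regions. The 7 include the second sr region, whose spread of 370 bp was the widest. Its replicate 2 summit is that of the peak over both sr regions and lies in the first.

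**Figure D4:**
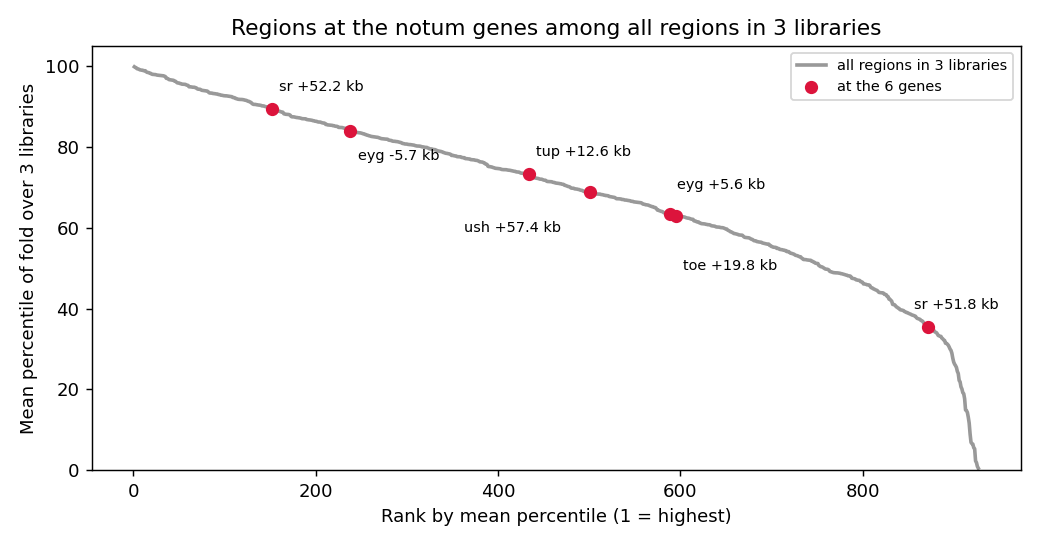
Mean percentile of fold over the 3 libraries (vertical axis) against rank for all 927 regions in 3 libraries (grey line), with the 7 at the notum genes in red, named by gene and distance in kb from the left gene end. They run from rank 152 (the strongest sr region) to rank 872 (the second sr region).

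Other genes of thorax patterning were taken from a list of 20, which was chosen with earlier results of these data known. A consensus region lay within 10 kb of 16 of them, against 17.7% of all protein-coding genes, and a region in all 3 libraries within 10 kb of 9, against 8.76%. These 9 were ara, caup and mirr (homeobox genes of the Iroquois complex, which pattern the lateral notum), dpp (a BMP ligand), vn (an EGF receptor ligand), Dr (a muscle-segment-type homeobox gene), emc (an inhibitor of proneural proteins), tsh (a trunk zinc finger gene) and hth (a Hox cofactor gene). The median number of regions per gene was 2 both in this list and in the 6 notum genes. Counted once where windows overlap, 51 regions lay at the 20 genes, 18 of them in all 3 libraries. The 17.7% and 8.76% are over genes of every length, whereas the lengths in this list run from 917 bp (ac) to 132008 bp (hth).

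Of the 20 genes, 4 had no consensus region within 10 kb; the genes named next were chosen after their values were seen. The 4 were sc, a proneural gene, Chi, which encodes a cofactor that bridges LIM-homeodomain and Pnr proteins, the LIM-homeodomain gene ap and the signal transducer gene Stat92E. Chi had no peak in any library, the only gene of the 20 without one. The proneural gene ac, next to sc, had 2 regions, neither in all 3 libraries, with no peak in replicate 1, 2 peaks in replicate 2 and 3 in replicate 3.

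**Figure D5:**
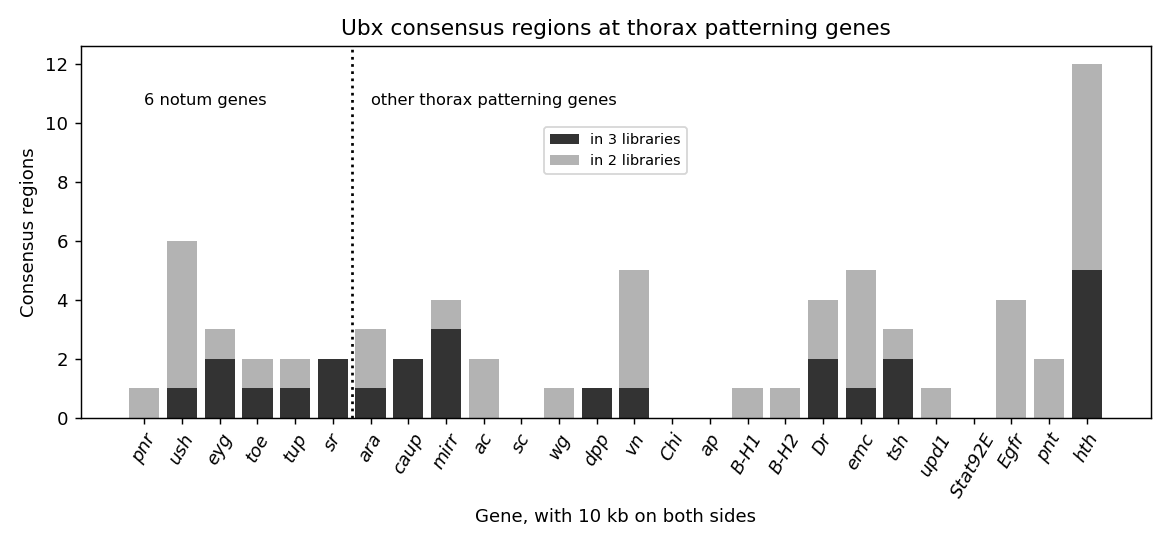
Number of consensus regions within 10 kb of the 6 notum genes (left of the dotted line) and of the 20 other thorax patterning genes, split into regions in 3 libraries (black) and in 2 (grey). Counts run from 1 to 6 at the notum genes and from 0 to 12 in the other list, where hth has 12 regions, sc, Chi, ap and Stat92E have none, and windows of neighbouring genes can hold the same region.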

How the data were processed

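ChIP-seq was done on 12 samples in 4 groups of 3 replicates, and samples were grouped by title. The haltere Ubx ChIP group supplied 3 peak lists and 1 consensus list; 9 samples were not analysed here. Trimmomatic 0.36, BWA, MACS2 and the build BDGP6 (Release 6) are named in the submitters' processing notes. MACS2 options, the control and the making of the consensus list are not given in the sources used here. Each deposited list gives, per the authors' peak caller, a fold enrichment (a linear ratio), a −log10 p-value, a −log10 q-value and a score, which is 10 times the latter with its decimals removed. The lowest deposited −log10 q-value was 2.00. Read depth is unknown.

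Positions are written 1-based. Gene extents came from a RefSeq table of Release 6 without strand or exons, so left and right mean lower and higher coordinates. An overlap needed 1 bp. Percentiles are mid-ranks within a list. Where several peaks of a library overlapped a region, the strongest was used. Genes and lists were chosen with earlier results of these data known: all 6 genes and every consensus region at them are described, as is the list of 20. Scripts ran on Python 3.11.15 with pandas 2.3.3 for overlaps, scipy 1.17.1 for intervals and matplotlib 3.10.9 for figures, and their functions were tested on simulated peaks. Sequences were not used here. Alternatives covered the window, the assignment, the overlap, the peak threshold and each library.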

Additional observations from a re-analysis of the deposited data

How the results depend on the processing

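Of the 6 genes, 5 or 6 had a shared region without any 1 library, with stricter peaks, or with assignment to the nearest gene; 4 did within 2 kb, and 3 when only the gene body counted. The 16 regions became 9 in gene bodies, 10 within 2 kb and 9 from the strongest 50% of each list, and 7 to 14 when a replicate was left out. Regions in all libraries, 7 as reported, were 2 in gene bodies, 3 within 2 kb and 3 from the strongest 50%. They were 4 at a −log10 q-value of at least 5, and 6 when peaks had to cover at least 50% of a region. Under that coverage rule the toe region was lost, with a replicate 1 peak of 124 bp over its 300 bp. With a replicate left out, regions in all libraries were 7 to 14, when only 2 libraries had to overlap. Peaks per gene and library averaged 3.39 ± 1.42 (SD, n = 3), 1.94 in gene bodies and 2.00 from the strongest 50%, with 2.58 to 3.92 when a replicate was left out. Smaller windows and stricter lists can only remove peaks. The pnr region was lost without replicate 2 and without replicate 3. The 6 regions at ush became 2 without replicate 2, 1 without replicate 3 and 2 from the strongest 50%. Those at eyg were then 2, 2 and 3, so ush no longer led. Under the other alternatives ush kept the most regions. The mean of the median percentiles stayed within 1 SD under each alternative tried, between 52.4 and 63.0; it was not recomputed for the trimmed lists. The ranking by q-value was chosen after seeing the data. The search for sequence words was not run, because no genome sequence was used. No paired analysis was possible because no second group entered the counts. Unknown depth limits what a missing peak means.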
